A study of Mus musculus with 4 samples.

Results

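MAP kinase cascades and the serine/threonine and dual-specificity phosphatase families were described here by the N6-methyladenosine (m6A) sites on their mRNAs in mouse heart. Genes were taken by symbol from both deposited site lists: kinases named Map4k, Map3k, Map2k and Mapk with the Mapk-named scaffolds and partners, the Dusp genes without Dusp1, the Ppp1 to Ppp6 subunits, and the Ppm1 and Phlpp genes. The rule found 85 genes among the 6660 with a site in either list. They held 142 of the 10814 wild-type sites (1.31%) and 141 of the 10388 knockout sites (1.36%). The rule used names only and no measured value.

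Hearts of ABRO1 Knockout mice were compared with hearts of wild type mice, both on a C57BL/6 background. Per genotype there was 1 m6A immunoprecipitate and 1 input library, and 1 list of sites was made from the pair, called the WT list and the KO list below. Nothing in the labels gives the age or sex of the animals, how many hearts entered a library, or which cells lost the gene. Without replicates no spread between animals is known, so the genotypes were not tested against each other, and every statement below compares 2 lists. The deleted gene had no site in either list under the symbols Abro1, Fam175b or Abraxas2, so the lists do not check the knockout. Read depth behind the sites is unknown from these lists. Of 10 cardiomyocyte markers, Ryr2, Tnnt2 and Ttn carried sites in both lists, Ttn with fold enrichments (immunoprecipitate over input, given by the authors' peak caller) of 64.2 and 66.5, and the other 7 carried none. Of 5 fibroblast markers 4 carried a site in at least 1 list, of 5 endothelial markers 4, and of 5 immune markers 1. The shares of these cell types were not measured, and in whole tissue fewer cells of a type and less RNA per cell cannot be told apart.

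In a MAP kinase cascade a MAP3K phosphorylates a MAP2K, which phosphorylates the terminal MAPK. MAP4Ks and small GTPases act above this chain, and scaffold proteins hold its members together. Dual-specificity phosphatases (DUSPs) remove the activating phosphates from the MAPK. The PPP family (PP1, PP2A, calcineurin and relatives) joins a few catalytic subunits with many regulatory subunits that choose the substrate, whereas PPM and PHLPP phosphatases act largely as single chains. In heart muscle these enzymes act on contraction, glycogen, stress responses and hypertrophy, with calcineurin as a classical driver of hypertrophic gene expression. m6A is placed on mRNA by a methyltransferase complex and is read by proteins that alter the stability and translation of the RNA. The anti-m6A antibody also binds the related mark on the first transcribed base next to the cap, so a site at a transcript start can hold either mark.

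Of these genes, 62 carried a site in both lists, 11 in the WT list only and 12 in the KO list only. These are 72.9%, 12.9% (95% binomial interval 6.64 to 21.98) and 14.1% (7.51 to 23.4) of the 85. Among all 6660 genes with a site, 74.4% stood in both, 14.0% in the WT list only and 11.6% in the KO list only. Both shares of the kinase and phosphatase genes were thus close to the background, and neither count stands apart from the rest of the lists. Intervals here and below are exact (Clopper-Pearson) and cover counting error only.

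A RefSeq table for GRCm38.p6 holds 168 protein-coding genes that match the same names, and 83 of them had no site in either list under that symbol. Among the 83, Map3k20 and Ppp4r3a had sites in both lists under the older symbols Zak and Smek1, and the counts by class and by subunit below leave these 2 out of the genes with a site. A gene without a site is one for which no site is listed; it may be unmethylated, weakly expressed or below the caller's threshold. Counted by kinase name, 2 of 5 MAP4K genes, 11 of 19 MAP3K genes (with Map3k7cl), 6 of 7 MAP2K genes and 6 of 13 MAPK genes carried a site. The JNK gene Mapk8 had none, while its activators Map2k4 and Map2k7 had sites in both lists. Of the phosphatases, 9 of 23 DUSP genes, 24 of 45 PP1 genes, 9 of 16 PP2A genes, 2 of 5 calcineurin genes, 2 of 11 genes of PP4, PP5 and PP6, and 9 of 14 PPM and PHLPP genes carried one. Split by subunit, a division made after the values were seen, 4 of 11 catalytic subunits of the PPP family had a site (36.4%) and 33 of 65 regulatory or other subunits (50.8%). The share of all protein-coding genes with a site is not given here. These counts therefore mark no class and no kind of subunit as unusual.

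**Figure D1:**
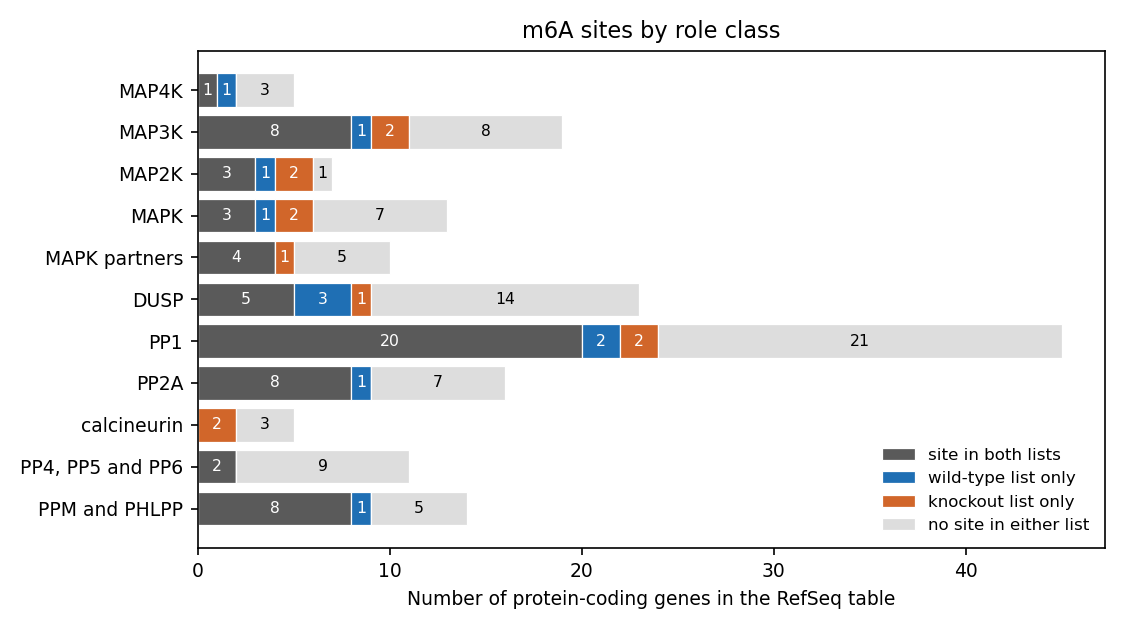
Number of protein-coding genes per role class (horizontal axis), split by whether a site was listed in both genotypes, in 1 list only or in none. PP1 is the biggest class with 24 of 45 genes carrying a site, and both calcineurin genes with a site lie in the KO list only.

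Many sites lay over the start of a transcript, and the bases there are shown for the starts that recur in the results. RefSeq promoter windows (GRCm38.p6, the same assembly as mm10) gave 250 bases before and 50 bases from each start. A site of 30 genes in the WT list and of 32 in the KO list covered an annotated start of its own gene, 26 genes in both and 36 in either. In each list 20 of these sites had their edge exactly at the start base, and the sources do not say whether the intervals were trimmed to annotated transcripts. The lines below give 10 bases before the start in lower case and the first 20 transcribed bases in capitals, 5′ to 3′ on the gene's strand. First come genes listed in 1 genotype only (Dusp5 and Ppm1j in the WT list, Dusp6, Map2k1 and Ppp3r1 in the KO list). They are followed by the 5 starts with the largest WT folds among starts covered in both lists, and by Map3k10 and Ppp1r13b, which hold a GGAC within the bases shown, as does Map2k1.
Dusp5, chr19:53529135-53529164, plus strand: cggaatccccAGCTTTCTGGGGCAGCGAGC
Ppm1j, chr3:104781046-104781075, plus strand: agggggcgggCCCACGGTCGAGGGCGGGGC
Dusp6, chr10:99263221-99263250, plus strand: ggctgtttgtATCCATTGAGGAGCTGCCTC
Map2k1, chr9:64253586-64253615, minus strand: ctcaccctccAGTCCCTCACTGGGACGTCT
Ppp3r1, chr11:17159288-17159317, plus strand: cgctccgcccTCTGCGCGCCCTGTTCCGTG
Ppp1r7, chr1:93343618-93343647, plus strand: ggcctaaggcGACAGATTCCGGAAAGGGAA
Ppp1r9b, chr11:94991202-94991231, plus strand: tggccgctgcTTCGCGGGCTGGGCGCGCGG
Ppp1r14a, chr7:29289310-29289339, plus strand: agtaggggcaGCGGGTGACGGTACGATGGC
Map3k1, chr13:111808974-111809003, minus strand: cgcaggcacgAGCGAATGTAGCCCGCGAGA
Ppm1a, chr12:72761201-72761230, plus strand: gggcggggccGGGCGAGGGGCAGCGGTGTC
Map3k10, chr7:27674562-27674591, minus strand: ccggcggggaGAGGGACTTAGGGGGCCGAC
Ppp1r13b, chr12:111908036-111908065, minus strand: gaggcggtggCGGCGGCTGAGGGACGGCGA

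The letters GGAC, the core of the common m6A sequence context, were searched in the first 50 transcribed bases. On the gene's own strand, 11 of the 36 starts under a site of these genes held them (30.6%, interval 16.3 to 48.1). Over all 32851 windows of the table the share was 18.9%, and over all starts under a WT site it was 19.9%. On the opposite strand the shares were 19.4% (7 of 36) and 17.4% of all windows. The interval for the 36 starts includes the share of all windows. Of the same 36 starts, 8 began with A (22.2%, 10.1 to 39.2), against 34.4% of all windows and 26.8% of all starts under a WT site. Dusp5, Dusp6, Map2k1 and Map3k1 are among those 8. A match is a description of the letters and does not place a modified base.

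In the values that follow, a bare pair of numbers is the deposited fold of a WT site and then of the KO site that overlaps it. For a site in 1 list only, its fold and its score are named. Each fold belongs to its own list, and the difference within a pair has no error and is not a measured change. Counts of shared genes per class stand beside 74.4% shared among all genes with a site. The classes are small, and their counts were not tested against that share.

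The MAP4K tier was represented by Map4k4, a stress-responsive kinase above the JNK branch, and by Map4k3, which is linked to amino acid sensing. Map4k4 had the most sites of any of these genes, 9 in the WT list and 7 in the KO list. Its sites with the largest folds stood close together in the distal part of the gene on chromosome 1. The site from 39997021 to 39997182 had a fold of 67.8 in the WT list and 59.1 in the KO list, and that from 39990089 to 39990299 had 55.6 and 62.8. The next, from 39986625 to 39986800, had 32.9 and 16.9. All 3, and the site from 39988970 to 39989042 (folds 10.35 and 7.32), had a score of 3100 in both lists. In this score, minus 10 times the log10 of the caller's p, a larger value is a smaller p, and many strong sites share the value 3100. All Map4k4 sites of both lists were between 52 and 219 bp long, except the last one. That 1682 bp site at the 3′ end was in the WT list only (fold 9.36, score 127), as was a weak site of 79 bp (fold 3.70, score 71.0). Map4k3 had 1 weak site over its start in the WT list (fold 7.04, score 65.5) and none in the KO list.

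Of the 11 MAP3K genes with a site, 8 were shared. Map3k1, the kinase MEKK1, had a site over an internal annotated start 9.52 kb into its span, with folds of 29.4 and 18.8. Beyond it the lists differed in the 3′ part. Sites at 42.3 and 45.6 kb were in both, with folds of 11.3 and 5.97 and of 7.11 and 5.74. Those at 62.5 kb (fold 16.8, score 401) and 70.0 kb (fold 8.85, score 63.3) were in the WT list only, and one at 55.1 kb (fold 4.75, score 57.1) in the KO list only. Map3k4 had an internal site with folds of 16.02 and 19.83, and a long one of 1358 bp with 14.6 and 8.88. Its site near the 3′ end (fold 9.82, score 228) was in the KO list only. Map3k5, the oxidative stress kinase ASK1, had a strong site at its start with folds of 15.7 and 7.10 and scores of 1339 and 1393, and its 3′ site was in the KO list only (fold 2.54, score 53.3). The 2 lists thus gave this start nearly the same score with different folds.

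Map3k11, a mixed-lineage kinase, had its strongest site near the 3′ end with 14.4 and 12.1 (scores 1959 and 1949), and a weak upstream site in the KO list only (fold 4.91, score 65.7). Its relative Map3k10 had 3 overlapping sites, with WT folds of 9.26 to 14.3 and knockout folds of 5.44 to 9.59. Map3k7, the kinase TAK1, had 14.1 and 8.14 at its start, and Map3k6 had 4.87 and 6.67 over an internal start and 9.42 and 11.2 at its 3′ end. Both WT sites of Map3k6 were near the lowest score listed (53.2 and 51.6), with KO scores of 139 and 238. Map3k14, a kinase of the non-canonical NF-kB pathway, had weak sites at its 5′ end with folds of 4.62 and 5.60. Map3k2 was in the WT list only, with 2 weak sites (folds 8.64 and 6.61, scores 68.5 and 81.8). Map3k8 (fold 4.65, score 81.3) and Map3k13 (fold 5.87, score 61.6) were in the KO list only. Under an older symbol outside the rule, Zak (now Map3k20) also had a site in both lists, with folds of 9.78 and 18.1.

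The MAP2K tier held the site with the largest fold of all 283. Map2k2, the ERK activator MEK2, had it near the 3′ end of the gene on chromosome 10, from 81123620 to 81124697 in the WT list and to 81124632 in the KO list. Its folds were 107 and 81.9, with a score of 3100 in both. Its partner Map2k1 had no WT site and a KO site over its start near the lowest score listed (fold 4.17, score 52.7). For the JNK activators, Map2k7 had 21.3 and 15.0 near its 3′ end and a further start site in the KO list only (fold 4.34, score 152), and Map2k4 had 11.3 and 10.6 near its start. The p38 activators split between the lists, with Map2k6 in the WT list only (fold 8.99, score 82.5) and Map2k3 in the KO list only (fold 5.25, score 84.1). Both sites were weak.

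Terminal kinases had modest folds. Mapk4, an atypical MAPK, had the largest WT fold, with 10.3 in the KO list beside 18.4 in the WT list, and its weak 3′ site was in the KO list only (fold 3.02, score 57.9). Mapk7, the kinase ERK5, had 9.56 and 10.96 at a site of 2010 bp in the WT list and 2015 bp in the KO list, and the p38 gene Mapk14 had 6.25 and 6.19 over its start. Mapk6, another atypical MAPK, was in the WT list only (fold 5.50, score 162). The JNK genes Mapk9 (fold 3.94, score 89.0) and Mapk10 (fold 4.64, score 65.0) were in the KO list only.

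Of 10 scaffolds and partners of MAPKs, 5 had a site. Mapk8ip3, a JNK scaffold that also binds kinesin, had 5.37 and 6.18 over its start and an internal site in the WT list only (fold 6.06, score 56.8). The related scaffold Mapk8ip1 had 8.99 and 5.17 at 1 site and a second site in the KO list only (fold 7.07, score 131). Mapk1ip1l had 10.4 and 8.18, and Mapk1ip1 had 7.61 and 5.78. Mapkapk5, a kinase activated by p38 and by atypical MAPKs, was in the KO list only, with a site near its 3′ end (fold 8.77, score 333). The nearest WT site, assigned to Adam1a on the same strand, lay 3177 bp away.

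Of the 9 DUSP genes with a site, 5 stood in both lists, 3 in the WT list only and 1 in the KO list only. Among all genes with a site these shares were 74.4%, 14.0% and 11.6%, and the split of 9 genes was not tested. Dusp27, an inactive relative found in striated muscle, had a 3239 bp site near its 3′ end with folds of 20.2 and 21.1 and a score of 3100 in both. Dusp3, which acts on ERK and JNK, had a 3797 bp site with 15.6 and 13.2. The cytoplasmic ERK phosphatase Dusp7 had 2 overlapping sites, 11.8 and 6.99 at its start and 10.6 and 6.67 further on. Dusp8 and Dusp10 act on JNK and p38. Dusp8 had 6.47 in the WT list and 15.1 in the KO list at its start, with scores of 69.9 and 235, and 8.39 and 6.83 at its 3′ site. Dusp10 had 7.85 and 5.96 near its start, and its 3′ site was in the KO list only (fold 10.7, score 190).

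The unshared DUSP genes included Dusp5 and Dusp6, inducible phosphatases of ERK. Dusp5, the nuclear one, had 3 sites in the WT list and none in the KO list, with folds of 13.5 at the start, 7 inside and 6.77 at the 3′ end, and scores of 164, 69.8 and 145. Dusp6, the cytoplasmic one, had 1 site in the KO list and none in the WT list, over its start (fold 6.87, score 120). The JNK and p38 phosphatase Dusp16 was in the WT list only, with a 2383 bp site at the 3′ end (fold 10.8, score 419). It was the strongest by score of the 11 genes listed in the wild-type genotype only. The small phosphatase Dusp23 had a weak start site there (fold 5.17, score 75.9).

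**Figure D2:**
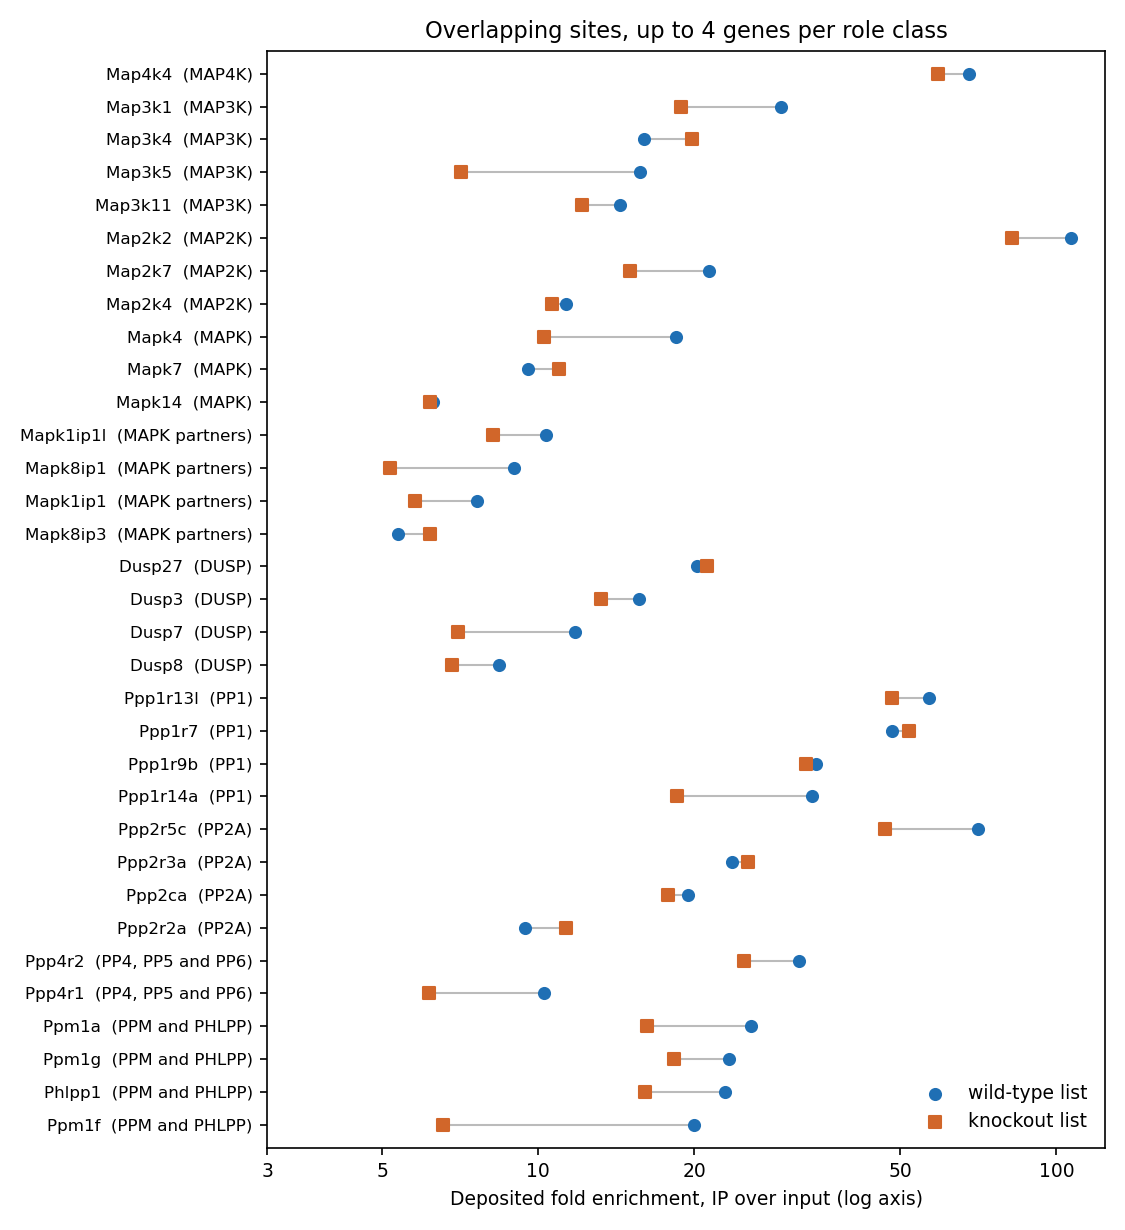
Deposited fold enrichment, immunoprecipitate over input on a log axis, for up to 4 genes per role class, each at its overlapping site with the largest WT fold (circles, WT list; squares, overlapping KO site). Map2k2 has the largest pair, 107 and 81.9. Sites were picked by the WT fold, each fold belongs to its own list, and the gap between a circle and a square is not a measured change.

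PP1 formed the largest group, and among its catalytic subunits Ppp1ca, Ppp1cb and Ppp1cc the last alone had a site, with folds of 6.40 and 5.23. Myosin phosphatase is PP1 bound to a MYPT subunit and dephosphorylates the myosin light chain. Its subunit Ppp1r12a had 8 WT and 7 KO sites, the strongest next to each other at 97.7 kb (17.7 and 12.4) and 98.8 kb (18.2 and 14.8). Sites in 1 list only were weak there: 91.3 kb (fold 5.03) and 109.7 kb (fold 4.92) in the WT list, and 102.6 kb (fold 4.37) in the KO list. Ppp1r12b, the form of heart and skeletal muscle, had 5 sites in each list, all 5 with identical edges. Of these, 4 stood between 178.6 and 183.9 kb, where the 51 bp site had 19.4 and 17.9, and 1 lay over the start (7.76 and 8.70). Ppp1r14a, the myosin phosphatase inhibitor CPI-17 of smooth muscle, had 33.8 and 18.5 at its start and 12.9 and 10.9 inside, and its relative Ppp1r14b had 14.4 and 13.4 at its start.

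Several scaffolding and nuclear PP1 partners had strong sites. Ppp1r13l, the p53 inhibitor iASPP, had 56.7 and 48.2 at a site with a score of 3100 in both lists (chromosome 7, 19372924 to 19373384). On its 5′ side the lists placed different sites, 19369794 to 19370304 in the WT list (fold 14.1, score 640) and 19371205 to 19371646 in the KO list (fold 9.83, score 814). Among the sites of the kinase and phosphatase genes without an overlap, these 2 had the highest score in each list. The related Ppp1r13b had 22.2 and 22.8 at its start. Ppp1r7, a conserved PP1 regulator, had 48.1 and 52.0 over its start and 29.0 and 14.8 at a second site.

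The actin-binding scaffolds neurabin (Ppp1r9a) and spinophilin (Ppp1r9b) had 6 and 5 WT sites and 5 and 4 KO sites. Spinophilin had 34.4 and 32.9 at its start and 22.1 and 18.3 at 10.7 kb, and its site at 6.84 kb was in the WT list only (fold 8.98). Neurabin had its largest WT fold at the 3′ end, 16.3 and 7.84. It had 12.1 and 8.71 near its start, and its largest KO fold was 8.89, at 210.8 kb, where the WT fold was 9.07. A 54 bp site of neurabin was in the WT list only (fold 7.19). Phostensin (Ppp1r18), a further actin-binding partner, had 25.3 and 16.4 at a site that covers an annotated start, with scores of 3107 and 1825.

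**Figure D3:**
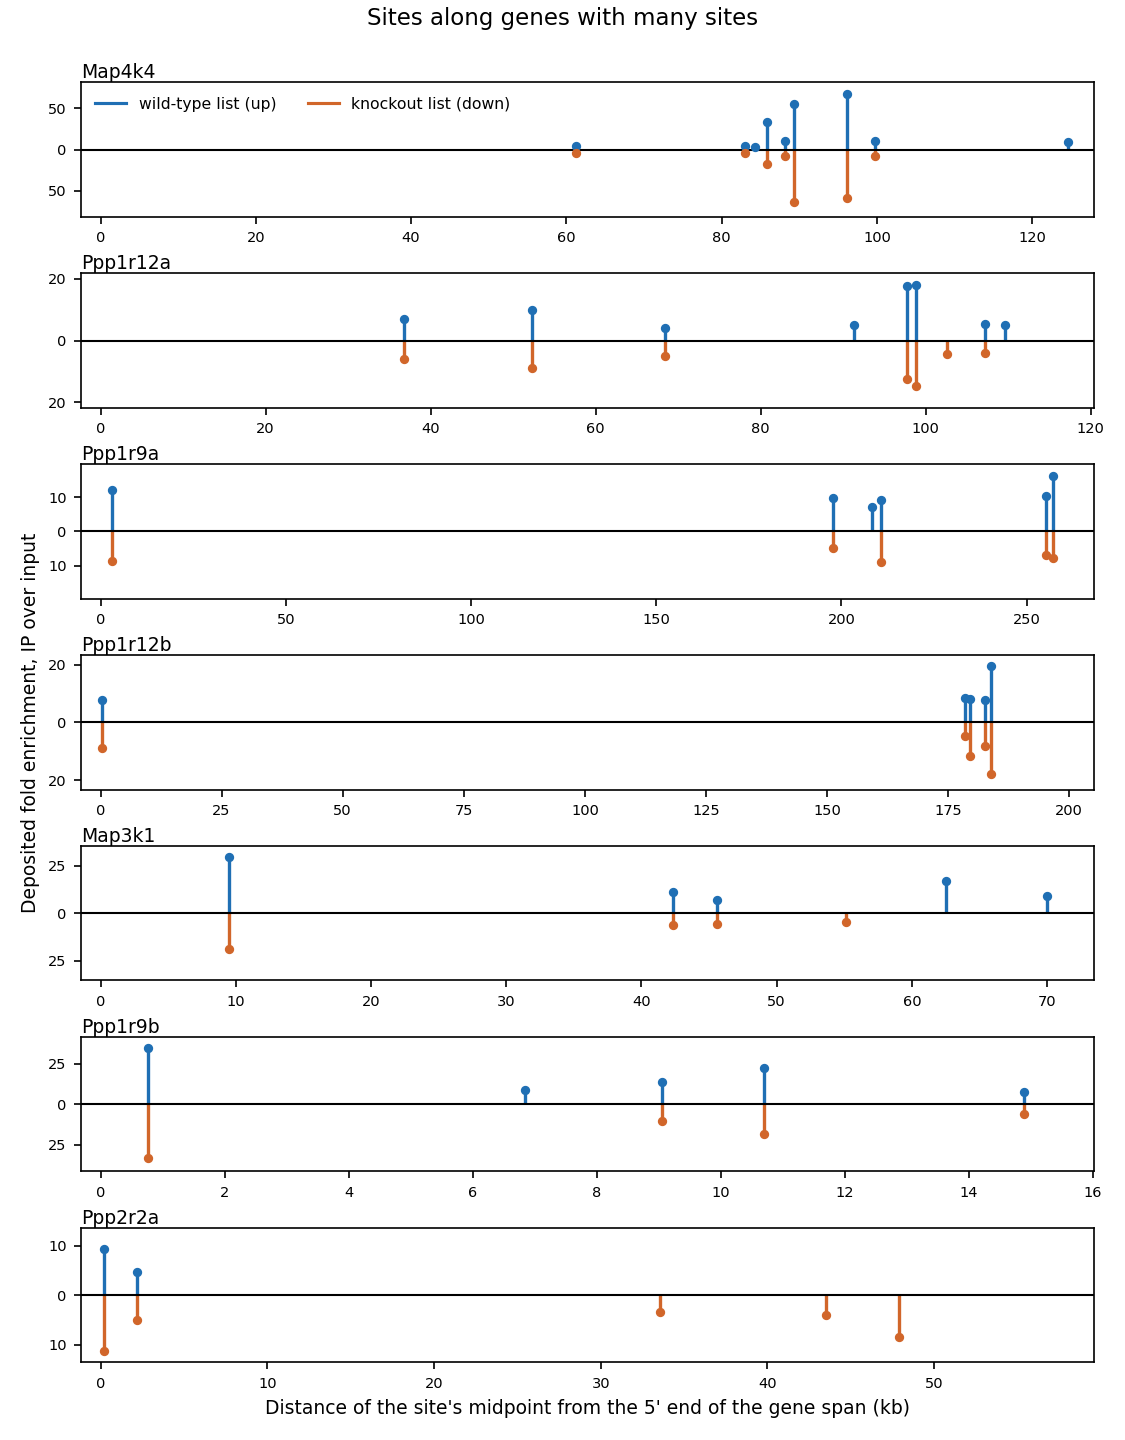
Sites along the 6 genes with the most sites and Ppp2r2a, as distance in kb of the site midpoint from the 5′ end of the gene span, with the deposited fold upward for the WT list and downward for the KO list. Map4k4 sites crowd between 83.0 and 99.7 kb, all 5 Ppp1r12b sites stand at the same places in both lists with unequal folds, and 3 Ppp2r2a sites are drawn downward only.

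Glycogen-targeting subunits bring PP1 to glycogen synthase and phosphorylase, and 4 of them had sites. Ppp1r3a, the striated muscle form, had a 2737 bp site in the KO list only (fold 3.52, score 528), which was the strongest by score of the 12 genes listed in that genotype only. Ppp1r3b had 2 sites there (folds 3.48 and 5, scores 122 and 76.5). Ppp1r3f was in the WT list only (fold 7.62, score 123). Ppp1r3e was in both, with folds of 28.2 and 7.13 and scores of 596 and 135 at 1 site of about 1.1 kb. Ppp1r3c, Ppp1r3d and Ppp1r3g had no site.

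The stress-response subunits Ppp1r15a and Ppp1r15b, which direct PP1 to the initiation factor eIF2 alpha, had 6.10 and 5.96 and 14.6 and 11.4. Ppp1r16a had 17.4 and 10.4 at its 5′ end. Its endothelial relative Ppp1r16b was in both lists at different places, with 1 site near the 3′ end in the WT list (fold 6.20, score 139) and 2 upstream of it in the KO list (folds 11.2 and 9.46, scores 169 and 193). The inhibitor Ppp1r2 had 7.19 and 9.36 at its start and an internal site in the KO list only (fold 4.08, score 112). Ppp1r26 had 12.9 and 7.83 at a site of 4366 bp in the WT list, and a further KO site of 820 bp (fold 3.33, score 51.9). Ppp1r37 had 11.7 and 8.92 near its 3′ end, and the cAMP-regulated inhibitor Ppp1r1b had 6.29 and 5.60 with low scores of 55.5 and 77.6. Ppp1r27 was in the WT list only (fold 11.9, score 199), but a KO site assigned to Fam195b on the same strand lay 248 bp away.

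Of the 9 PP2A genes with a site, 8 stood in both lists. Ppp2r5c, a B56 subunit, had 70.4 and 46.7 on chromosome 12 from 110447179 to 110447385, and a weak WT site beside it (fold 7.26, score 75.8). The catalytic genes had 19.5 and 17.8 for Ppp2ca and 8.31 and 9.49 for Ppp2cb at their 5′ ends. A further Ppp2ca site in the KO list (fold 6.78, score 105) lay beyond the annotated 3′ end of the gene. Ppp2r3a had 23.7 and 25.3 over its start. The B55 subunit Ppp2r2a showed the widest gap in the number of sites among genes in both lists, 2 in the WT list and 5 in the KO list. The 2 shared sites lay at the 5′ end (9.42 and 11.3) and at 2.20 kb (4.60 and 5.05). Its 3 further KO sites at 33.5, 43.5 and 47.9 kb had folds of 3.45, 4.02 and 8.47 and scores of 150, 187 and 284. Its relative Ppp2r2d was in the WT list only (fold 7.10, score 251).

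The other B56 genes with a site had a shared site at the 5′ end and also an unshared one. Ppp2r5d had 6.70 and 8.50 at its start, 5.40 and 7.74 at 4.92 kb, and a 1385 bp 3′ site in the WT list only (fold 10.1, score 382). Ppp2r5a had 6.16 and 6.04 at its start, and an internal site in the KO list only (fold 7.05, score 181). Ppp2r5e had 7.19 and 6.78, and a weak second WT site at 2.99 kb (fold 5.39, score 53.1). The scaffold genes Ppp2r1a and Ppp2r1b had no site.

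Calcineurin is the calcium-activated phosphatase that dephosphorylates NFAT. Its catalytic gene Ppp3ca (fold 5.22, score 312) and its regulatory gene Ppp3r1 (fold 7.5, score 107) each had 1 site near the 5′ end in the KO list, and neither had one in the WT list. Ppp3cb and Ppp3cc had no site in either. With 2 genes, and 11.6% of all genes in the KO list only, no more than the listing can be stated. Among other phosphatases, the PP4 subunits Ppp4r2 (31.8 and 24.9) and Ppp4r1 (10.3 and 6.15) were in both lists, and Smek1, an older symbol of Ppp4r3a outside the rule, had 9.83 and 7.80. The catalytic genes Ppp4c, Ppp5c and Ppp6c had no site.

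Of the 9 PPM and PHLPP genes with a site, 8 stood in both lists. Ppm1a, which acts on stress kinases and SMADs, had 25.7 and 16.2 over its start, and a second site in the WT list only (fold 6.59, score 485). Ppm1b had 3 overlapping sites, with 15.0 and 6.50 at its start, 8.58 and 6.30 inside and 14.0 and 8.31 towards its 3′ end. Ppm1g had 23.4 and 18.3 near its 3′ end and 18.5 and 13.8 further upstream. The start of Ppm1f, a phosphatase of calmodulin-dependent kinases, had 20 in the WT list with a score of 292 and 6.56 in the KO list with a score of 50.2, close to the lowest score listed. A second Ppm1f site was in the WT list only (fold 7.91, score 74.5). Phlpp1, which dephosphorylates Akt, had 22.9 and 16.1 at its strongest site near the 3′ end, and Phlpp2 had 13.2 and 13.7. The p53-induced Ppm1d had 7.80 and 7.01. Ppm1e, a relative of Ppm1f, was in both lists without a shared place, at its 3′ end in the WT list (fold 5.15, score 73.4) and over its start in the KO list (fold 7.74, score 120). Ppm1j was in the WT list only (fold 10.2, score 182).

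Over all these genes, 107 sites of each list overlapped a site of the other. They made up 75.4% of the WT sites (interval 67.4 to 82.2) and 75.9% of those from the knockout (68.0 to 82.7). Without an overlap were 35 WT sites (24.6%) and 34 KO sites (24.1%), beside 22.8% and 19.6% over all sites. The intervals of 17.8 to 32.6 and 17.3 to 32.03 include these background shares. None of the 34 WT and 29 KO sites with a score of at least 1000 lacked an overlap, with upper limits of 10.3% and 11.9%, against 2.80% and 2.20% of all such sites. Among those with a score under 100, 18 of 29 WT sites (62.1%) and 12 of 25 KO sites (48.0%) lacked one, beside 53.8% and 50.5% of all such sites. All 214 overlapping sites were assigned to the same gene in both lists, and 85 pairs had identical edges. Of the 62 shared genes, 35 had equal numbers of sites in the lists (56.5%, beside 69.6% of all shared genes). More sites in the WT list were held by 14 (22.6%, beside 16.9%), and more in the KO list by 13 (21.0%, beside 13.5%). These shares of genes carry no interval, and their difference from all shared genes was not tested. Of the 62 genes, Ppm1e and Ppp1r16b were the only 2 without any overlapping site (3.23%, beside 2.66% of all).

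Genes in 1 list only had a lower median score of the strongest site than shared genes, here as over all genes. The strongest site of the 11 in the WT list had a median score of 162 (65.5 to 419), and that of the 12 in the KO list 98.0 (52.7 to 528). For the 62 shared genes the medians were 611 and 592. Over all genes the corresponding medians were 97.9 and 93.1 for genes in 1 list and 510 and 474 for shared genes. Single genes in 1 list only still reached 3100 in the WT list and 3151 in the KO list. The score of 100 was not reached by 4 of the 11 and 6 of the 12. Of these 23 genes, 20 had a single site, and the strongest score was not adjusted for the number of sites of a gene. No site of the other list lay anywhere within the annotated span of any of the 23.

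**Figure D4:**
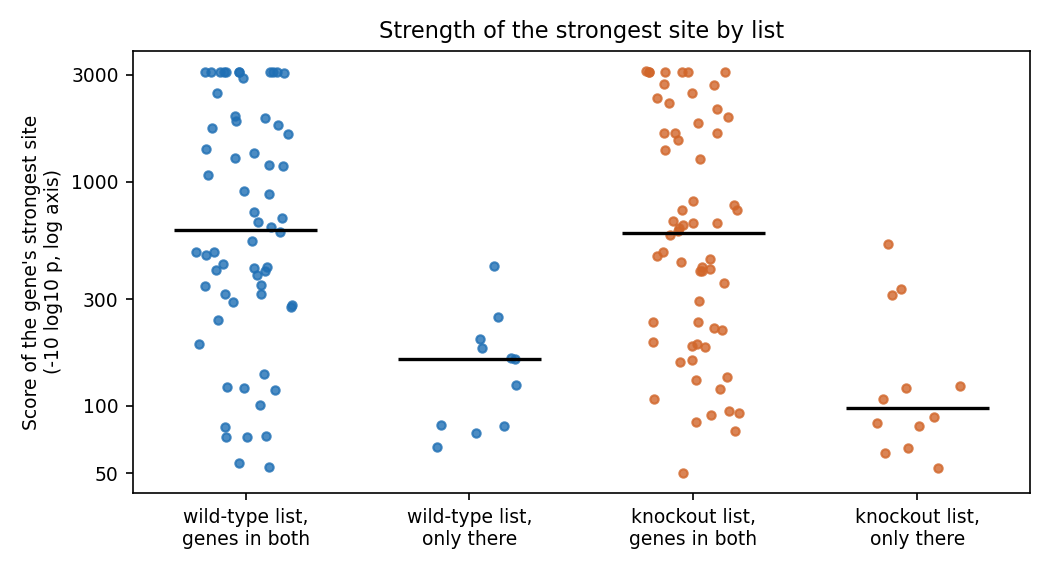
Score of the strongest site of each gene on a log axis, by list and by whether the gene was in both lists (points, genes; bars, medians). Genes in 1 list only reach at most 419 in the WT list and 528 in the KO list, below the medians of 611 and 592 for shared genes.

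Median folds lay close to those of all sites. Among these genes the median was 9.42 in the WT list (quartiles 7.01 and 14.9) and 7.74 in the KO list (5.78 and 11.2), beside 9.35 and 7.96 over all sites of the respective list. Median scores were 329 and 267, beside 266 and 270. Because each list was called separately, the medians do not measure a change between the genotypes. The genes carried 1.95 and 1.91 sites per gene, beside 1.84 and 1.81. The caller's false discovery rate was 100% for all 141 KO sites and for 116 of the 142 wild-type ones, with a minimum of 83.3%. Over the whole lists it was 100% for 10385 of 10388 knockout and 8960 of 10814 WT sites.

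Position along the gene was concentrated at both ends. In the WT list 32.6% of the placed sites (24.97 to 41.0) lay in the first 20% of the span from gene start to gene end, and 34.0% (26.3 to 42.5) in the last 20%. In the KO list these were 34.5% (26.7 to 43.1) and 33.8% (26.0 to 42.3). Over all sites the first 20% held 25.5% (24.7 to 26.3) and 26.1% (25.3 to 27.0), and the last 20% held 35.7% and 34.8%. For the first part the intervals of these genes and of all sites overlapped in each list, and the KO share of all sites lay just below the interval of these genes. An annotated start was covered by 25.4% of WT sites (30 of 118 with a start in the table, 17.9 to 34.3) and 28.3% of KO sites (32 of 113, 20.2 to 37.6), beside 18.2% (17.3 to 19.0) and 19.1% (18.3 to 19.99) of all sites. The intervals overlapped for the WT list and missed each other narrowly for the KO list. They count each site as an independent one, which several sites of 1 gene are not, and 1 of several such shares was singled out here after the values were seen. Spans include introns, and exons, coding regions and untranslated regions were not placed.

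**Figure D5:**
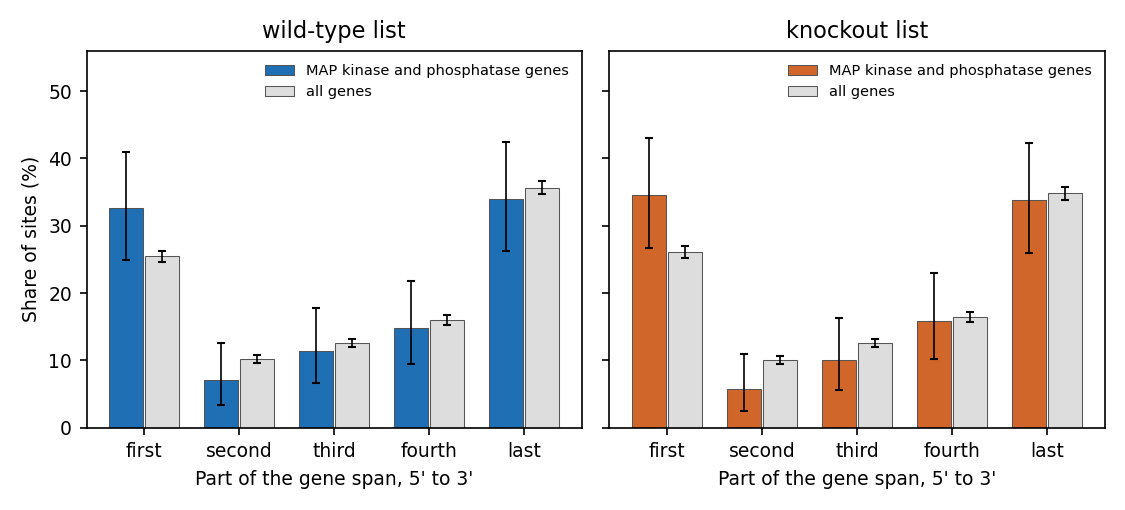
Share of sites in 5 equal parts of the gene span, ordered from 5′ to 3′, for the kinase and phosphatase genes (coloured bars) and all genes (grey bars), with exact 95% binomial intervals. Both lists show the most sites in the first and last parts, 32.6% and 34.0% in the WT list and 34.5% and 33.8% in the KO list.

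The neighbouring pathway genes outside the name rule were described with 4 lists of 91 genes in all. Of these, 71 had a site: 54 were in both lists, 8 in the WT list only and 9 in the KO list only. The other 20 had no site. Among all 6660 genes with a site, 74.4% stood in both lists, 14.0% in the WT list only and 11.6% in the KO list only. The pathway counts were not tested against these shares. Among 25 genes of Ras, Raf and their feedback, 19 had a site and 14 of these were shared. Sos2, an exchange factor of Ras, had 22.9 and 12.5 at its largest WT site, and Spry1, a feedback inhibitor, had 16.3 and 9.36. The kinases Araf and Braf had no site. Hras was in the WT list only with 2 sites (fold 14.5, score 2912), as were Nf1 (fold 5.53, score 70.8) and Lamtor3 (fold 3.83, score 53.1), and Shc1 (fold 5.71, score 52.6) and Spred1 (fold 4.91, score 106) were in the KO list only.

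Of 19 other upstream kinases and adaptors of the stress branch, 17 had a site and 14 of these were shared. Tnik, a close relative of Map4k4, had 9 sites in each list with a largest WT fold of 67.4 and 38.3 at the overlapping KO site, and Gadd45g, an activator of Map3k4, had 38.2 and 23.8. Traf6 was in the WT list only (fold 13.5, score 1647), and Taok1 (fold 3.65, score 62.3) and Traf2 (fold 4.95, score 153) in the KO list only. Among 22 substrates and targets, 15 had a site and 9 of these were shared, such as Jund with 34.3 and 25.2. Rps6ka3 and Fos were in the WT list only (scores 90.4 and 92.2), and Rps6ka2, Elk1, Myc and Mef2d in the KO list only (scores 71.1, 53.9, 207 and 99.0). Of 25 phosphatase partners, 20 had a site and 17 of these were shared. They were led by Phactr2, a PP1- and actin-binding protein, with 12 sites in each list and folds of 53.2 and 33.2. Around calcineurin, the inhibitor Rcan1 and the targets Nfatc1, Nfatc2 and Nfatc4 were in both lists. Rcan3 (fold 8.39, score 87.4) and Nfatc3 (fold 6.52, score 51.3) were in the WT list only, and the inhibitor Cabin1 (fold 4.75, score 91.5) was in the KO list only.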

How the data were processed

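MeRIP-seq (m6A immunoprecipitation and input, 1 library of each per genotype) was used as 1 deposited site list per genotype. The submitters' processing notes name mm10, HISAT2 2.0.4 and cutadapt 1.9.3. Site names begin with MACS; which version and settings the authors used is not stated. Per the file headers, fold enrichment is given as a linear ratio, score as the caller's p on a log10 scale multiplied by minus 10, and false discovery rate as a percent. No counts are given, so depth is unknown; site lengths are in bases. The authors made each list from both libraries of a genotype, so no value per replicate exists.

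Analyses ran in Python 3.11.15 with scipy 1.17.1 (exact intervals), numpy 2.4.6, pandas 2.3.3 and matplotlib 3.10.9. Sites overlapped at 1 bp or more on the same strand (code tested on simulated intervals). Genes were compared by list symbol; all 85 matched RefSeq GRCm38.p6. Site midpoints were placed in 5 equal parts of the RefSeq gene span. Coordinates are 1-based.

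Genes and lists were chosen with earlier results of these data known. Named genes follow a rule: all genes in 1 list only, the 4 largest wild-type folds per class, the genes with the most sites or a difference of 2 or more sites, the 5 largest folds per list, and pathway genes in 1 list only. The remaining genes were named to complete their classes. The alternatives were a score minimum of 100, equal list length, 50% reciprocal overlap, either strand, another symbol at the same place, Dusp1 added, Ppp1r genes left out, the 3′ end in place of the midpoint, and 1 site per gene. A genome sequence was not used, so site sequences and exons were not examined. Some genes and start sequences are not reported here.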

Additional observations from a re-analysis of the deposited data

How the results depend on the processing

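Of 44 alternative values for 13 results, 39 stayed within the limits set (1.5 times for a count, the 95% interval for a share or median) and 0 reversed. With a score of at least 100, the wild-type share of sites with an overlap rose to 85.0%, the wild-type median fold to 11.3, and the pathway genes in the wild-type list only fell to 4; the filter leaves fewer sites. With the strongest site per gene the median folds were 11.9 and 8.82, which follows from picking strong sites. Across all settings, the shared genes numbered 43 to 64, those in the wild-type list only 9 to 12 and those in the knockout list only 10 to 14. Adding genes by their current RefSeq symbol was chosen after seeing the data. No paired analysis was possible because each genotype had 1 list. Leaving out a replicate could not be done for the same reason. Depth limits all absences: without counts, a missing site cannot be told apart from one below the caller's threshold.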
